A study of Homo sapiens with 4 samples.

Results

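Osteoclasts, the cells that resorb bone, are controlled by a small set of secreted factors and receptors, and 10 of these genes were followed here in a prostate cancer line selected for growth in bone. They were the colony-stimulating factors CSF1, CSF2 and CSF3, the cytokine IL34, the receptor CSF1R, the RANK axis of TNFSF11 (RANK ligand), TNFRSF11A (RANK) and TNFRSF11B (osteoprotegerin, OPG), the peptide hormone PTHLH, and the transcription factor NFATC1. The genes were listed with earlier results of these data known. Each was represented by a probe set to which the platform annotation gave exactly 1 gene symbol, and where there were several the probe set was to be chosen by its mean log2 level over the 4 arrays. Of the 10 genes, 8 were measured in this way, out of 18417 genes with such a probe set and 33297 probe sets in all. Each of the 8 had exactly 1 probe set, so level decided nothing. CSF2 and PTHLH were not analysed here.

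PC-3-BM is a derivative of the human prostate cancer line PC-3, labelled as having high metastatic potential, and PC-3 is the parental line, itself derived from a bone metastasis and labelled as having poor metastatic potential. Per the study's methods, PC-3 cells were injected into the heart of male nude mice, tumour cells were recovered from bone, expanded in culture under geneticin, sorted for green fluorescent protein and injected again, and PC-3-BM was the line obtained after repeated rounds. It is therefore 1 selected derivative, and what belongs to bone selection, to passage through mice or to chance outgrowth cannot be told apart. Both lines carried firefly luciferase and green fluorescent protein. Each line was hybridised to 2 Affymetrix Human Gene 1.0 ST arrays. Separate cultures are not named for the arrays of a line, and all p-values below therefore rest on array-to-array spread that may be technical alone. Whether RNA came from cells grown in mice, as the labels put it, or in culture dishes, as the methods have it, was not settled.

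Osteoclasts arise from myeloid precursors. CSF1 and IL34 both bind CSF1R on those precursors and keep them alive, while RANK ligand, normally shown by osteoblasts, osteocytes and lymphocytes, binds RANK and switches on NFATC1, which drives the osteoclast genes. OPG is a soluble decoy that captures RANK ligand. PTHLH, released by many tumours in bone, raises RANK ligand in osteoblasts. CSF2 (GM-CSF) and CSF3 (G-CSF) act on granulocytes and macrophages and on the marrow in general. In bone metastasis, tumour cells are known to act on osteoclasts by secreting such factors, and the comparison asked which of the genes differed in level between cells of high and low ability to colonise bone.

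In PC-3-BM, CSF1 was 3.91-fold higher than in PC-3, CSF3 was 1.37-fold higher, and TNFRSF11A, encoding RANK, fell by 0.36 on the log2 scale. The other 5 measured genes, IL34, CSF1R, TNFSF11, TNFRSF11B and NFATC1, did not pass the test. Thus 2 of 8 rose and 1 fell at an adjusted p below 0.05 (limma, Benjamini-Hochberg adjustment over all 33297 probe sets), where 23.2% of all probe sets passed, 11.6% upward and 11.6% downward. Among the 18417 genes taken by their brightest probe set 29.6% passed, so the count of 3 lay near the background and is no result about the set as a whole. The median difference of the 8 genes was −0.050, against −0.042 over all genes. None of the 8 passed the thresholds of the study's methods (adjusted p below 0.001 and an absolute log2 difference above 2). In the fit used here 17 probe sets did, 0.0511% of all. The paper reports more genes at these thresholds, so the fit here does not reproduce its list. CSF1 missed both cuts, the log2 one narrowly (1.97, limma, adjusted p = 0.00201). In its discussion the paper names CSF1 among the genes with raised expression in PC-3-BM.

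**Figure D1:**
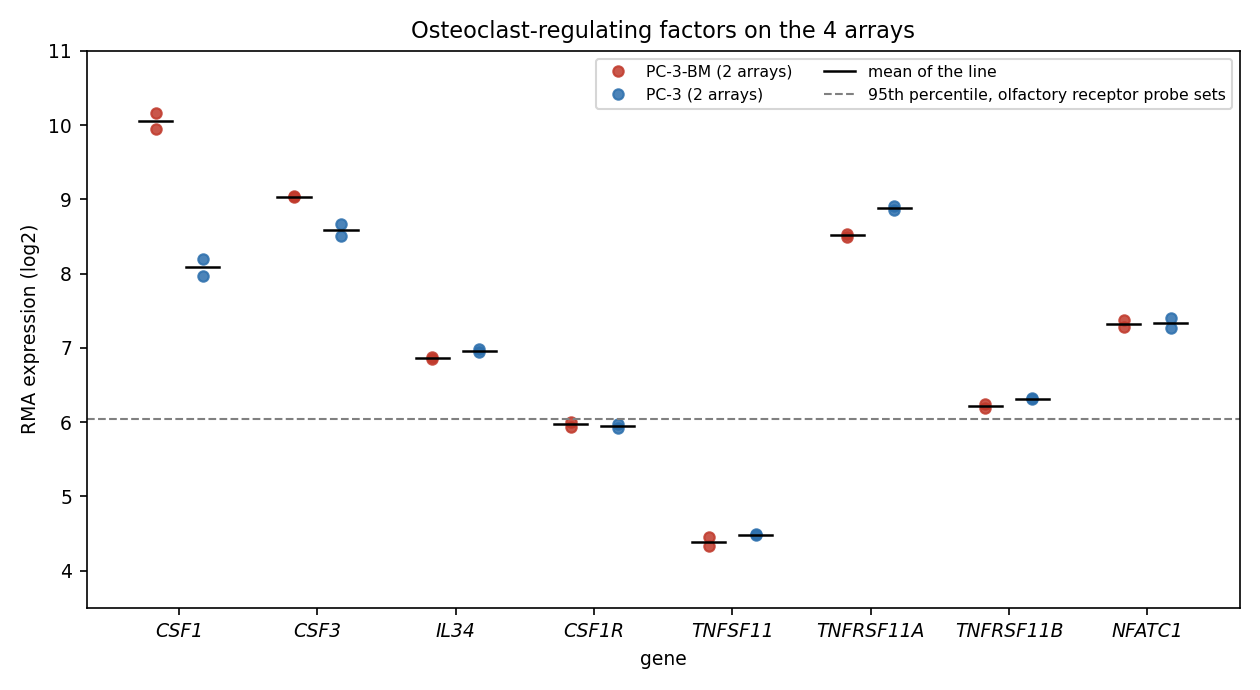
RMA expression (log2, vertical axis) of the 8 measured genes (horizontal axis) on the 2 PC-3-BM arrays (red) and the 2 PC-3 arrays (blue), with black bars for the mean of each line. CSF1 lay at 9.94 and 10.16 in PC-3-BM and at 7.97 and 8.20 in PC-3, whereas TNFSF11 stayed below the dashed line, the 95th percentile of olfactory receptor probe sets (6.04), on every array. Heights are not to be compared between genes, since probe sets differ in brightness.

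RMA values carry no detection call. As a yardstick for probe sets that may report no transcript, 360 probe sets of olfactory receptor genes, most of which are silent outside the nose, were used. Their mean log2 value over the 4 arrays had a median of 4.51 and a 95th percentile of 6.04, and the lower quartile of all probe sets was 5.03. TNFSF11 and CSF1R lay under the 95th percentile on all 4 arrays, TNFRSF11B lay slightly above it, and CSF1, CSF3, TNFRSF11A, IL34 and NFATC1 lay further above it.

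Of the RANK pair, only the receptor was measured at a level clear of that yardstick, and the promoters of receptor and ligand are shown because they differ in base composition. Promoter entries were found for 6 of the 10 genes in the RefSeq table of GRCh38.p14, and those of CSF1, CSF3, IL34 and TNFRSF11B were not used here. The 250 bases before the start of each gene are given 5′ to 3′ on the gene's strand, for TNFRSF11A at chr18:62325060-62325309 (plus strand) and for TNFSF11, upstream of the earlier of its 2 listed starts, at chr13:42562486-42562735 (plus strand). Capitals mark the GC box GGGCGG and the NFAT core GGAAA, each searched on both strands.
TNFRSF11A: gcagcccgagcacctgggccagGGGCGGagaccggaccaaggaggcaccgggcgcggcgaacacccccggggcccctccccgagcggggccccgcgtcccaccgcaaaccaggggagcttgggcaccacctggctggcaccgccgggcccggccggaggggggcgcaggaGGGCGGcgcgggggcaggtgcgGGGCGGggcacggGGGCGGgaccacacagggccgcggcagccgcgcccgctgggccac
TNFSF11: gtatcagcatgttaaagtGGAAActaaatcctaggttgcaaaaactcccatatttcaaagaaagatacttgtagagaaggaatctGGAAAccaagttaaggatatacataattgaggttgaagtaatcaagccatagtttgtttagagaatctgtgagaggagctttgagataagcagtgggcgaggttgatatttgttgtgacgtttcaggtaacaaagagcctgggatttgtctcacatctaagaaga
The TNFRSF11A window was 82.4% G and C with 30 CpG dinucleotides and held 4 GC boxes and 0 NFAT cores. The TNFSF11 window was 37.6% G and C with 2 CpG dinucleotides and held 0 GC boxes and 2 NFAT cores. Over 35116 windows of the same length the median was 58.0% G and C with 11 CpG dinucleotides, 42.6% held a GC box and 55.6% an NFAT core. The window before the later TNFSF11 start was 62.8% G and C with 6 CpG dinucleotides and held 0 GC boxes and 0 NFAT cores, so the NFAT cores shown belong to the earlier start alone. Those before the NFATC1 starts were 81.2% and 73.2% G and C, and those before the CSF1R starts 64.4% and 53.2%. These matches describe letters and do not show that a factor binds there.

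CSF1, the growth and survival factor of macrophages and osteoclast precursors, had the largest difference of the 8 genes. Its log2 values stood at 9.94 and 10.16 on the PC-3-BM arrays, against 7.97 and 8.20 on the PC-3 arrays. The lines did not overlap, and the gap between the nearest arrays was several times the spread within either line. The mean was 10.05 ± 0.15 in PC-3-BM and 8.08 ± 0.17 in PC-3 (SD, n = 2 arrays each), a log2 difference of 1.97 (SE 0.12, 95% interval 1.65 to 2.28, limma, adjusted p = 0.00201). Ranked by upward difference, CSF1 stood at place 76 of the 33297 probe sets. The adjusted p in limma was 0.0194 without PC-3-BM array 1, 0.0180 without PC-3-BM array 2, 0.0310 without PC-3 array 1 and 0.0292 without PC-3 array 2. The higher level of CSF1 was already known when the genes were chosen, so its rise is not independent support for the choice.

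IL34, the other ligand of CSF1R, did not pass the test. It was at 6.88 and 6.84 in PC-3-BM and at 6.98 and 6.95 in PC-3. Both PC-3-BM arrays were the lower ones, and the interval of the difference included 0 (−0.10, SE 0.068, 95% interval −0.28 to 0.077, limma, adjusted p = 0.360).

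CSF3, the growth factor of neutrophils, was at 9.03 and 9.05 in PC-3-BM, against 8.67 and 8.50 in PC-3. The lines did not overlap, and the 2 PC-3-BM arrays were almost equal. The difference was 0.45 (SE 0.085, 95% interval 0.23 to 0.67, limma, adjusted p = 0.0228). This call rested on all 4 arrays, since the adjusted p in limma was 0.0918 and 0.0913 without PC-3-BM array 1 or 2, and 0.0577 and 0.101 without PC-3 array 1 or 2.

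CSF1R, the receptor tyrosine kinase of monocytes, macrophages and osteoclast precursors, was dim in both lines. Its log2 values were 5.94 and 6.0 in PC-3-BM and 5.92 and 5.97 in PC-3, which overlapped (0.029, SE 0.072, 95% interval −0.16 to 0.21, limma, adjusted p = 0.813). Of 6 receptors and co-receptors of CSF1, IL-34, CSF2 and CSF3, 5 lay under the olfactory receptor yardstick in both lines (by line means, here and below), among them CSF2RA, CSF2RB and CSF3R. The exception was SDC1, the proteoglycan syndecan-1 described as a partner of IL-34, which fell by 0.46 (SE 0.075, limma, adjusted p = 0.0156), with values of 9.15 and 9.09 in PC-3-BM and of 9.62 and 9.53 in PC-3. Its adjusted p was above 0.05 after leaving out any 1 array, at most 0.0895.

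In the RANK axis, the ligand was dim and the receptor fell. TNFSF11 was at 4.33 and 4.46 in PC-3-BM and at 4.49 and 4.48 in PC-3. All 4 values were near the median of the olfactory receptor probe sets, so a fall or a small change in RANK ligand may not show here. The difference was −0.093 (SE 0.077, 95% interval −0.29 to 0.11, limma, adjusted p = 0.449), and neither PC-3-BM array reached the yardstick. TNFRSF11A, the gene whose promoter is the GC-rich sequence shown above, was at 8.49 and 8.54 in PC-3-BM, against 8.91 and 8.85 in PC-3. The PC-3-BM arrays were both the lower ones with no overlap, a difference of −0.36 (SE 0.071, 95% interval −0.55 to −0.18, limma, adjusted p = 0.0245) or a ratio of 0.777. The call did not outlast the loss of any array, with an adjusted p in limma of 0.109 without PC-3-BM array 1, 0.0800 without PC-3-BM array 2, 0.121 without PC-3 array 1 and 0.0940 without PC-3 array 2. TNFRSF11B, encoding the decoy OPG, was at 6.19 and 6.24 in PC-3-BM and at 6.31 and 6.32 in PC-3, again lower on both PC-3-BM arrays but not past the test (−0.10, SE 0.069, 95% interval −0.28 to 0.078, limma, adjusted p = 0.363).

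NFATC1, the master regulator of osteoclast formation and also an effector of calcium signalling in other cells, was at 7.28 and 7.37 in PC-3-BM and at 7.40 and 7.27 in PC-3. These overlapped, and the difference was −0.0076 (SE 0.083, 95% interval −0.22 to 0.21, limma, adjusted p = 0.961). Its sign turned when the arrays were centred on their medians (0.027). Across the 8 genes the arrays of the lines did not overlap in 6, 2 upward and 4 downward, where 62.8% of all probe sets and 70.6% of genes did not overlap.

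**Figure D2:**
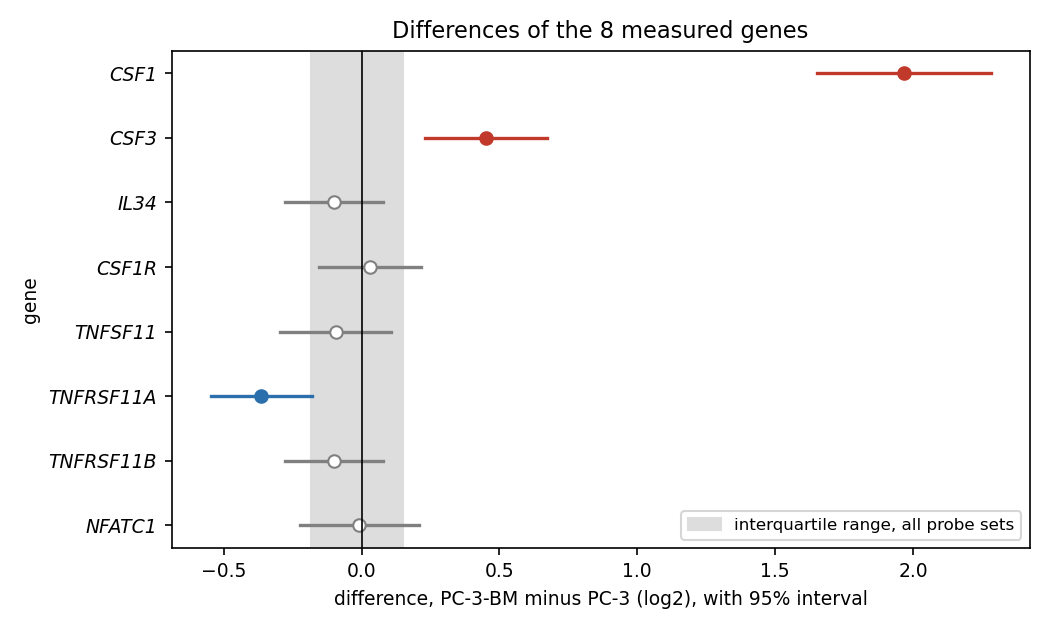
Differences between the lines, PC-3-BM minus PC-3 (log2, horizontal axis), for the 8 measured genes (vertical axis). Dots are the fitted differences and lines their 95% intervals, filled red for the 2 genes that rose, filled blue for the 1 that fell and open grey for the rest, over a grey band for the interquartile range of all probe sets (−0.18 to 0.15). The intervals of CSF1 and CSF3 lie above the band, and those of the 5 open dots include 0.

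Around these genes, 8 lists of pathway genes were counted in the same fit. Of all genes 14.8% rose and 14.8% fell, the shares to set beside the count of each list. The share called ran from 16.7% for CSF and IL-34 receptors to 50% for RANK signal transducers, with 29.4% for calcineurin and NFAT regulators. For the marker lists it ran from 0% for lymphocyte markers to 62.5% for prostate and epithelial markers. No list was tested as a set. With genes counted once, 34 of 129 measured genes rose and 14 fell, 37.2% in all against 29.6% of all genes, and their median difference was 0.040. Of the 129, 36 lay under the yardstick in both lines. The share of all probe sets called depends on level, and was 43.7% when only probe sets with a mean above 6 were fitted. In that fit 36 pathway genes rose and 19 fell. The part of level in the 37.2% was not tested. As no list was tested as a set, the 37.2% is no result about the lists as a whole. Without PC-3-BM array 1, PC-3-BM array 2, PC-3 array 1 or PC-3 array 2, 18, 21, 13 and 15 rose and 5, 3, 2 and 2 fell. For the genes named below, the text says which calls held without any 1 array.

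The list of RANK signal transducers, the adaptors, kinases and transcription factors that act below the receptor, had 11 of 28 measured genes higher in PC-3-BM and 3 lower, with a median of 0.14. Of the 28, 4 lay under the yardstick in both lines, some of the genes that rose among them. The deubiquitinase CYLD, a brake on RANK and NF-kB signalling, was at 8.34 and 8.35 in PC-3-BM and at 7.44 and 7.52 in PC-3 (0.86, SE 0.072, limma, adjusted p = 0.00350). NFKBIA, the inhibitor of NF-kB, rose by 0.69 (SE 0.072) and IKBKB, the kinase that marks that inhibitor for destruction, by 0.66 (SE 0.076). TRAF3, which restrains the noncanonical NF-kB branch, and MAP3K14, the kinase that starts this branch, fell by 0.52 each (SE 0.084 for TRAF3 and 0.079 for MAP3K14), and TAB3, a partner of the kinase TAK1, fell by 0.38 (SE 0.068). Activators and inhibitors of RANK signalling were thus found among both the genes that rose and those that fell. Calls for CYLD and NFKBIA held without any 1 array, whereas those for IKBKB, TRAF3, MAP3K14 and TAB3 were lost without at least 1. The counts on this list were 2 to 6 higher and 0 to 2 lower with 1 array left out.

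Among 17 calcineurin and NFAT regulators 3 rose and 2 fell, with a median of −0.12. NFAT5, the NFAT relative that answers osmotic stress, was at 10.35 on both PC-3-BM arrays, against 9.52 and 9.60 on the PC-3 arrays (0.79, SE 0.072, limma, adjusted p = 0.00408). The scaffold HOMER2, which binds NFAT, fell by 0.76 (SE 0.077) with values of 6.65 and 6.53 in PC-3-BM and 7.35 and 7.36 in PC-3. PPP3CB, a catalytic subunit of calcineurin, fell by 0.45 (SE 0.075), while RCAN2, an inhibitor of calcineurin, rose by 0.46 (SE 0.099) and the scaffold HOMER3 by 0.36 (SE 0.071). Without any 1 array, the calls for NFAT5 and HOMER2 held and those for PPP3CB, RCAN2 and HOMER3 did not, which left 1 higher and 1 lower.

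Although PTHLH was not analysed here, 15 of 17 genes listed around it were measured, of which 3 rose and 3 fell, with a median of 0.051. TGFB1 and its receptor TGFBR1, through which transforming growth factor beta from bone is known to raise PTHLH in tumour cells, rose by 0.58 (SE 0.088) and 0.75 (SE 0.078), and so did GLI2, a transcription factor known to act on PTHLH (0.49, SE 0.069). The ligands TGFB3 and TGFB2 fell by 0.95 (SE 0.076) and 0.38 (SE 0.079), and the signal transducer SMAD2 fell by 0.39 (SE 0.099). Only the calls for TGFBR1 and TGFB3 held without any 1 array (1 to 2 higher and 1 lower). Of 5 measured genes around OPG and RANK ligand, 1 fell, TNFRSF10A, a receptor of the ligand TRAIL that OPG also binds (−0.35, SE 0.077, limma, adjusted p = 0.0331, and 0.144 at most with 1 array left out).

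Of 25 other secreted factors and enzymes known to favour osteoclasts, 8 rose and 3 fell, yet the median was −0.021. Of the 25, 7 lay under the yardstick in both lines, a gene that rose among them. CCL2, which draws monocytes, was at 7.90 and 8.23 in PC-3-BM, against 5.33 and 5.68 in PC-3 (2.56, SE 0.17, limma, adjusted p = 0.00229). CCN1, a matrix-bound signalling protein, rose by 1.73 (SE 0.076) and IL1A, an inflammatory cytokine, by 1.37 (SE 0.10), with PC-3 values of 5.36 and 5.43 for IL1A. The PC-3 values of CCL2 and IL1A lay under the yardstick of 6.04, the range of probe sets that may report no transcript. The Notch ligand JAG1 fell by 0.56 (SE 0.066), the prostaglandin synthase PTGES fell by 0.38 (SE 0.076) and INHBA, a subunit of activin A, fell by 0.32 (SE 0.078). The calls for CCL2, CCN1 and IL1A held without any 1 array and those for JAG1, PTGES and INHBA did not (5 to 6 higher and 0 to 1 lower). Of 16 factors known to restrain osteoclasts, 10 lay under the yardstick in both lines, 3 rose and 0 fell in limma (3 and 1 at an unadjusted p below 0.05). The largest gain on this list was that of SEMA3A, a semaphorin known to protect bone (0.73, SE 0.089), followed by LGALS3 (0.37, SE 0.074) and FST, which binds activin (0.28, SE 0.068), with 0 to 1 higher when 1 array was left out.

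**Figure D3:**
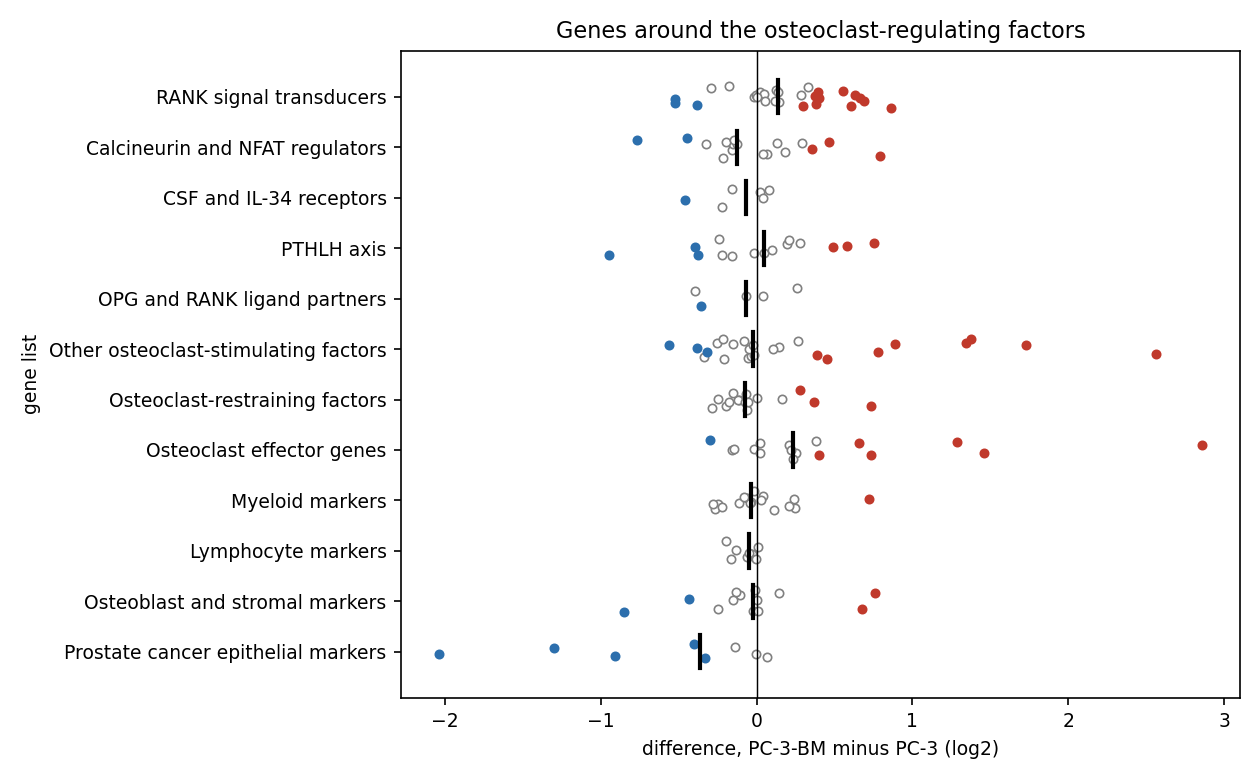
Differences between the lines, PC-3-BM minus PC-3 (log2, horizontal axis), of the measured genes of 8 pathway lists and 4 marker lists (vertical axis). Dots are genes, red for those that rose, blue for those that fell and open for those that did not pass an adjusted p below 0.05, and black bars are list medians, which run from −0.36 for prostate cancer epithelial markers to 0.23 for osteoclast effector genes.

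Genes known from the osteoclast itself were also raised in part. Of 17 osteoclast effector genes 6 rose and 1 fell, with a median of 0.23. ATP6V0D2, a subunit of the proton pump, was at 8.08 and 7.62 in PC-3-BM, against 4.98 and 5.02 in PC-3 (2.85, SE 0.16, limma, adjusted p = 0.00183), and its PC-3 values lay under the yardstick. CTSK, the collagen-degrading protease cathepsin K, was at 7.66 and 7.67 in PC-3-BM and at 6.09 and 6.32 in PC-3 (1.46, SE 0.10), and the integrin subunit ITGAV rose by 1.28 (SE 0.069), while its partner ITGB3 fell by 0.30 (SE 0.069). The calls for ATP6V0D2, CTSK and ITGAV held without any 1 array (4 to 5 higher on the list) and that for ITGB3 did not. CALCR, MMP9, DCSTAMP, FCER1G and CA2, also of this list, lay under the yardstick in both lines.

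Markers of cells that a bone harvest could carry gave the following values. The bone was that of mice, so carried cells would be mouse cells, while the arrays hold human probe sets. How far these probe sets read mouse RNA was not tested, and the values describe the human probe sets alone. Of 17 myeloid markers 1 rose and 0 fell in limma (3 and 3 at an unadjusted p below 0.05), and 12 lay under the yardstick in both lines, PTPRC, the pan-leukocyte marker CD45, among them. The mean log2 value over the list was 5.64 and 5.63 in PC-3-BM and 5.63 and 5.61 in PC-3. The marker that rose was CD68, a lysosomal protein (0.72, SE 0.075, limma, adjusted p = 0.00519), with values of 11.43 and 11.32 in PC-3-BM and 10.66 on both PC-3 arrays, and this call held without any 1 array. None of 9 lymphocyte markers passed in limma (0 higher and 1 lower at an unadjusted p below 0.05), and their mean was 5.31 and 5.38 in PC-3-BM and 5.38 and 5.45 in PC-3. The brightest of them, CD79A and CD8A, differed by −0.050 (SE 0.079) and −0.20 (SE 0.068). Of 13 osteoblast and stromal markers 2 rose, RUNX2 (0.76, SE 0.075) and COL1A1 (0.68, SE 0.075), and 2 fell, NES (−0.85, SE 0.090) and SOST (−0.44, SE 0.091), with list means of 6.30 on both PC-3-BM arrays and of 6.31 and 6.34 in PC-3. The calls for RUNX2, COL1A1 and NES held without any 1 array and that for SOST did not (2 higher and 1 to 2 lower). Of 8 prostate and epithelial markers 5 fell, with KRT8 at 8.83 and 9.05 in PC-3-BM, against 11.02 and 10.93 in PC-3, EPCAM at 5.56 and 5.64 in PC-3-BM, under the yardstick, against 6.81 and 6.99 in PC-3 (SE of the difference 0.093), and HOXB13 differing by −0.91 (SE 0.072). Without any 1 array 3 of the 5 still fell, and the calls for KRT8, EPCAM and HOXB13 held. KLK2 and KLK3, which mark androgen-responsive prostate cells, and CDH1 lay under the yardstick in both lines. The part of other cell types in the results above was not tested beyond these values, and that of mouse cells was not tested at all. In bulk RNA fewer cells of a type and less RNA per cell cannot be told apart.

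Neighbouring genes were set beside each measured gene, because PC-3 is an aneuploid line. Copy number itself was not analysed here. With 5 measured genes on each side, 19 of 80 neighbours rose and 6 fell, with a median of 0.031. The share called was 31.2%, near the 29.6% of all genes. By direction it was 23.8% higher and 7.5% lower, against 14.8% of all genes each way. This split was not tested as a set, so the count is no result about the neighbours as a whole. CSF1 on chromosome 1 exceeded each of its neighbours, of which 2 of 10 rose, AHCYL1 by 0.71 (SE 0.070) and GSTM3, of a family of close copies that probes can confuse, by 0.61 (SE 0.12), and the median was 0.032. CSF3 on chromosome 17 also had 2 of 10 neighbours higher (median 0.016), among them the circadian receptor gene NR1D1 (1.25, SE 0.11). TNFRSF11A on chromosome 18 had 2 neighbours higher and 1 lower (median 0.071), while TNFRSF11A itself fell. IL34 on chromosome 16 and TNFSF11 on chromosome 13 did not pass the test, and TNFSF11 was so dim that a fall or a small change may not show. Around IL34 5 of 10 neighbours rose (median 0.35), with VAC14 at 0.75 (SE 0.067). Around TNFSF11 6 of 10 rose (median 0.33), 5 of them the nearest 5 on the side of RGCC, a cell cycle regulator that rose by 3.12 (SE 0.093). Around TNFRSF11B on chromosome 8, 2 fell, CCN3 (−0.89, SE 0.069) and MAL2 (−0.29, SE 0.067). The calls for AHCYL1, NR1D1, VAC14, RGCC and CCN3 held without any 1 array, and those for GSTM3 and MAL2 did not. Over all 80, leaving out PC-3-BM array 1, PC-3-BM array 2, PC-3 array 1 or PC-3 array 2 gave 12, 13, 9 and 8 higher and 2, 2, 2 and 1 lower.

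**Figure D4:**
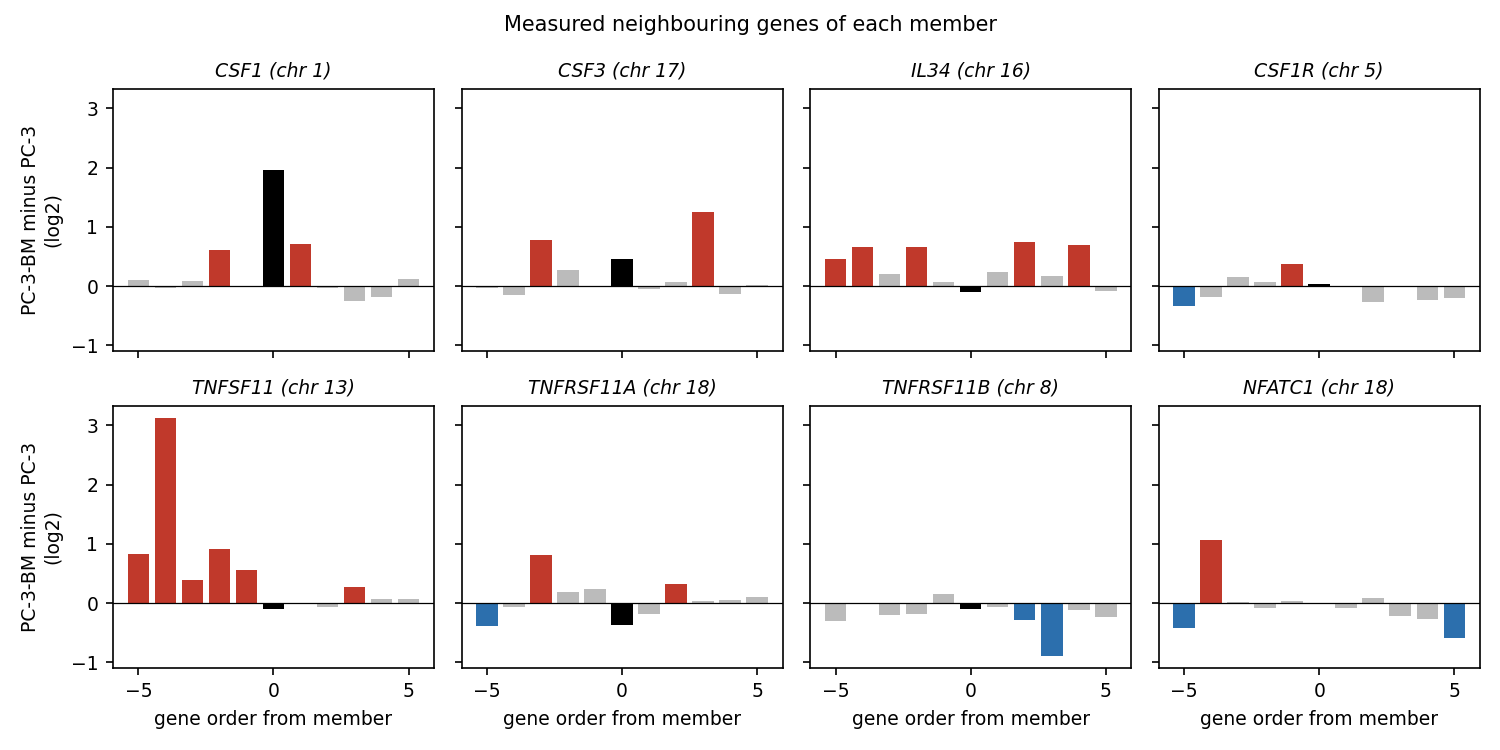
Differences between the lines, PC-3-BM minus PC-3 (log2, vertical axis), of each measured gene (black bar at 0) and its 5 measured neighbours on each side in RefSeq gene order (horizontal axis). Red bars rose, blue bars fell and grey bars did not pass an adjusted p below 0.05. CSF1 at 1.97 exceeds its neighbours, which run from −0.26 to 0.71. TNFSF11 at −0.093 lies beside 5 raised genes, but was so dim that a fall or a small change may not show.

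Over the 4 arrays, the genes whose profile lay closest to that of CSF1 were PTX3, a secreted pentraxin, SLC17A5, the lysosomal sialic acid exporter, and EHD2, a protein of caveolae, at root-mean-square distances of 0.064, 0.076 and 0.079 log2 units between centred values. Their differences were 1.90, 1.97 and 1.95. Closest to CSF3 were TSPEAR-AS2, TMEM165 and CD164, at 0.012, 0.017 and 0.018 log2 units, and closest to TNFRSF11A were MTDH, AGPAT2 and NRIP1, at 0.0064, 0.0070 and 0.0093 log2 units. With 4 arrays of 2 lines such likeness means mainly that a gene differed between the lines by a like amount.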

How the data were processed

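Per the study's methods, RNA was hybridised to Affymetrix Human Gene 1.0 ST arrays, and the authors deposited 1 log2 expression value per probe set and array. These came from RMA, the robust multi-array average of background-corrected and quantile-equalised probe signals, and were used unchanged. Versions credited in the submitters' processing notes are limma 3.24 with R 3.2. RMA would hide a shift of all transcripts in 1 line. Array medians were 6.66 and 6.68 in PC-3-BM and 6.72 and 6.69 in PC-3, and precision is limited by 2 arrays per line.

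Groups came from the sample titles. PC-3-BM minus PC-3 was fitted in limma 3.58.1 under R 4.3.3 with empirical Bayes moderation (2.88 prior and 2 residual degrees of freedom), two-sided, with Benjamini-Hochberg adjustment over 33297 probe sets. An exact permutation test of 2 against 2 arrays cannot go below 0.333. Rose and fell mean an adjusted p below 0.05. The genes, lists and tests were chosen with earlier results of these data known. Each gene was taken by its brightest 1-symbol probe set. In each list the text names up to 3 genes per direction with the largest differences past the test, or the 2 brightest where none passed, and for the called genes the 3 nearest profiles among probe sets above the lower quartile. Genes named as under the yardstick, and neighbours, were chosen after their values were seen. Scaling, filters on dim probe sets, moderation, a replicate block and leaving out arrays were tried as alternatives.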

Additional observations from a re-analysis of the deposited data

How the results depend on the processing

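CSF1 stayed higher in PC-3-BM and past an adjusted p below 0.05 in limma in 12 of 12 alternatives, with differences from 1.85 to 2.08. CSF3 kept its call in 8 of 12 and TNFRSF11A in 7 of 12, the losses being the 4 fits without 1 array and, for TNFRSF11A, the replicate block. Under the study's thresholds, applied to the fit used here, 0 of the 8 genes rose and 0 fell. The replicate numbers are not stated to pair the arrays, and the deviations of same-numbered arrays correlated at −0.017 over all probe sets. With the number as a replicate block, TNFRSF11A had a limma adjusted p = 0.0509, so that 0 of the 8 fell, and 19.4% of probe sets passed instead of 23.2%. The block also left 3 of 5 epithelial markers, 1 of 3 genes around PTHLH and 0 of 1 osteoclast effector genes lower. With 1 array left out 1 rose and 0 fell among the 8, the share of probe sets passing was 6.72% to 11.6%, pathway genes were 13 to 21 higher and 2 to 5 lower, neighbours were 8 to 13 higher and 1 to 2 lower, and the 95th percentile of olfactory receptor probe sets was 6.02 to 6.09. These fits have fewer arrays, so fewer calls follow in part from their construction.

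The share passing was 43.7% among probe sets with a mean above 6 and 39.8% among probe sets with 1 gene symbol. In the fit of probe sets with 1 gene symbol, 22 neighbours rose instead of 19 and 12 fell instead of 6. The sign of NFATC1 turned with arrays centred on their medians (0.027), with quantile normalization (0.0029), and with 1 array left out (−0.072 to 0.057). That of CSF1R (−0.0033 to 0.062) and of CD79A (−0.11 to 0.013) turned only with 1 array left out. The cause was not tested. TNFSF11 could not be fitted with filters on a mean above 5 or 6, nor CSF1R above 6, since they lie below. A mean over several probe sets per gene was not run because each of the 8 genes had 1. Groups of 2 arrays and dim values for TNFSF11 and CSF1R limit what could be detected.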
